A study of Brassica napus with 6 samples.

Results

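Cut mRNA ends were compared site by site between young siliques of a long-silique line (LS) and a short-silique line (SS) of rapeseed, Brassica napus. A site was a target mRNA together with a position in it. The LS table ended inside its last entry, on BnaA09g07450D, so sites of both tables up to this target in ascending order were taken. This gave 198 sites on 190 mRNAs, of 510 sites in both tables in full. LS held 124 of the 198 sites and SS held 147. All of them lay on mRNAs whose identifiers name chromosomes A01 to A09, so the C subgenome was not compared. None of the 190 targets matched the gene table used here, and they carry identifiers without gene names.

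Both lines were backcross progeny of the cross 8008 × 4942, grown in a field, and no other treatment or allele is named. Pistils were taken at day 0 after pollination and siliques up to day 7, from about 12 plants per stage. RNA of 1 degradome library per line was compared, so no difference between the lines has a replicate check, and none was tested. The libraries pool tissue over these days, so a site cannot be assigned to a stage. The tables give no read numbers at a site, and the depth of each degradome library is unknown.

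A plant miRNA guides an ARGONAUTE protein to a closely matching stretch of an mRNA, which is then cut opposite the middle of the miRNA. The downstream piece keeps a free 5′ phosphate, and a degradome library collects such 5′ ends, so a pile of ends at the predicted cut marks a site. Each deposited entry names a miRNA, a target and a position, and rates the site by a p-value, by a score of the pairing and by 1 of the categories 0 to 4. The score equalled the number of unpaired bases plus 0.5 for each G and T wobble in 353 of 354 entries with a full alignment, so a lower score means closer pairing. In the usual scheme category 0 is the unique highest peak of an mRNA, 1 a tied highest peak, 2 and 3 lie above and below the typical level of that mRNA, and 4 is a lone read. The definition behind these tables is not given in the sources used here. No mRNA had more than 1 site of category 0 in a library, over 133 combinations of mRNA and library with such a site. Nearly all mRNAs had only 1 listed site, with 124 sites on 123 mRNAs in LS and 147 on 143 in SS. That count could therefore hardly have come out otherwise, and it does not settle the definition. The bases opposite positions 10 and 11 of the miRNA were paired at every site with a complete alignment, in shared and single-table sites alike.

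The miR156 sequences are shown because most differences between the tables in sites of known miRNAs turned on them. They are given 5′ to 3′ in DNA letters as in the degradome tables, with bases 2 to 8, the seed, in capitals. The first group of 3 names has 21 bases and the second has 20, starting 1 base later.
ahy-miR156c: tTGACAGAagagagagagcac
smo-miR156c: tTGACAGAagaaagagagcac
bna-miR156g: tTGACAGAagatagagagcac
bra-miR156g-5p: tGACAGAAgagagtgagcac
ptc-miR156k: tGACAGAAgagagggagcac
ath-miR156g: cGACAGAAgagagtgagcac
The names within the first group share the seed TGACAGA and those within the second GACAGAA. Any pair in the first group differed at 1 of 21 bases. Their predicted cuts on the same mRNA lie 1 base apart, as in these stretches of BnaA04g24340D, where capitals mark the bases opposite miRNA positions 10 and 11.
BnaA04g24340D at 800, paired with bra-miR156g-5p: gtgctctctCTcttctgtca
BnaA04g24340D at 801, paired with smo-miR156c: gtgctctctcTCttctgtcaa
Across 93 pairs of entries within 5 bases on one mRNA, the shift in position equalled the shift of the paired stretch in all 93. These include pairs at the same position, with no shift in either. The count describes how positions follow the paired stretch and is no evidence of a cut.

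Sites of known miRNAs were largely shared, and sites of predicted miRNAs (names starting novel_mir) largely were not. For known miRNAs, 50 sites stood in both tables, 7 in LS only and 36 in SS only. SS therefore held 87.7% of the 57 LS sites (Wilson 95% interval 76.8% to 93.9%), and LS held 58.1% of the 86 SS sites (47.6% to 68.0%). For predicted miRNAs, 23 sites stood in both, 44 in LS only and 38 in SS only, which is 34.3% of the 67 LS sites (24.1% to 46.3%) and 37.7% of the 61 SS sites (26.6% to 50.3%). The intervals treat sites as independent, although sites of 1 miRNA share its sequence, so they cover counting error only. No known name was found in LS only, and 26 names were listed in both tables. bna-miR161, bna-miR169b and bra-miR390-5p were listed in SS only. Of 51 predicted names in LS and 45 in SS, 21 were in both.

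**Figure D1:**
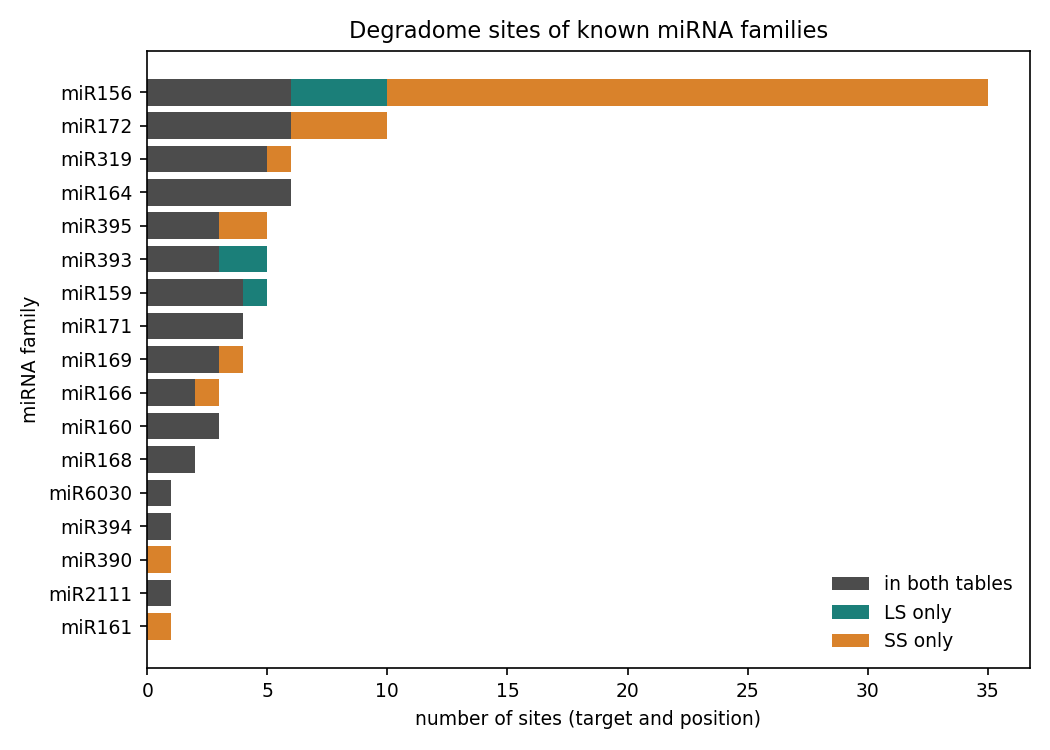
Number of degradome sites per known miRNA family up to the last LS target, split into sites in both tables, in LS only and in SS only (1 library per line). miR156 held 35 of the 93 sites and 25 of the 36 SS-only sites, and 7 families had every site in both tables.

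Of the 32 families in the lists used, 16 had a site, and miR6030, in no list, made 17 families. All 17 were present in SS and 15 in LS. In 7 families (miR160, miR164, miR168, miR171, miR394, miR2111 and miR6030) every site was shared, 18 sites in all. LS-only sites occurred in 3 families and SS-only sites in 8. Outside miR156, 44 of the 47 LS sites were shared, 3 were in LS only and 11 in SS only.

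In the phase and flower identity list, miR156, which acts on SPL transcription factors, had 6 shared, 4 LS-only and 25 SS-only sites. miR172, which acts on AP2-like genes, had 6 shared and 4 SS-only sites. In the auxin list, all 3 sites of miR160, which acts on auxin response factors, were shared. miR393, which acts on auxin receptor F-box genes, had 3 shared and 2 LS-only sites. miR390, which starts trans-acting siRNAs against auxin response factors, had 1 site, in SS only. In the organ growth and boundary list, all 6 sites of miR164, which acts on NAC boundary genes, were shared. miR319, which acts on TCP genes, had 5 shared and 1 SS-only site, and miR166, which acts on HD-ZIP genes of organ polarity, had 2 and 1.

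Among families linked to gibberellin or to other transcription factors, 12 of 14 sites were shared. miR159, which acts on GAMYB-like genes, had 4 shared sites and 1 in LS only. miR169, which acts on NF-YA genes, had 3 shared sites and 1 in SS only. All 4 sites of miR171, which acts on GRAS genes, and the site of miR394, which acts on an F-box gene, were shared. In the phosphate and sulfate list, miR395, which acts on sulfate assimilation genes, had 3 shared and 2 SS-only sites, and the site of miR2111 was shared. Both sites of miR168, which acts on ARGONAUTE mRNA, were shared. The copper and redox list had no site among the 198 compared.

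Shared sites of known miRNAs were nearly all of category 0, at 48 of 50 in LS and at 46 in SS. The category was the same at 45 of 50 sites, and at all 45 it was 0. With so many sites of category 0 in each library, most had to match, so this count does not measure agreement site by site. Examples with close pairing were sites of miR171 (BnaA03g21080D at 832, score 0), miR172 (BnaA01g34730D at 642, score 0.5) and miR160 (BnaA07g20790D at 1297, score 0.5), each of category 0 and p of 0 in both tables. A p of 0 lies under the smallest step of the deposited p-values, 0.002. The stretch at the miR171 site, shown as a match without a mismatch, pairs with bra-miR171e over its whole length, with capitals opposite miRNA positions 10 and 11.
BnaA03g21080D at 832: gatattggcgCGgctcaatca
BnaA07g20790D at 1297, paired with bna-miR160d: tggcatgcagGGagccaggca
For 10 other families the shared site with the smallest LS p was also of category 0 in both tables. Those of miR166 (BnaA02g06170D at 315, score 2.5), miR164 (BnaA02g09970D at 816, score 2), miR393 (BnaA02g28290D at 1563, score 2), miR2111 (BnaA06g32400D at 268, score 1.5) and miR394 (BnaA07g08860D at 1203, score 1) had a p of 0 in both. That of miR156 (BnaA07g08840D at 1134) had a p of 0 in LS and 0.014 in SS. The remaining 4 had a higher p in LS than in SS. It was 0.002 and 0 for miR159 (BnaA03g15690D at 549, score 2), 0.004 and 0.002 for miR168 (BnaA05g17460D at 585, score 3.5), 0.01 and 0.002 for miR169 (BnaA06g01280D at 926, score 2.5) and 0.022 and 0.008 for miR319 (BnaA01g29050D at 901, score 3.5). Over all 50 shared known sites, the p was lower in SS at 13, higher at 6 and the same at 31, of which 23 had a p of 0 in both. Sites of 1 miRNA and category mostly carry 1 p-value, so the 50 sites are not separate comparisons. Scores of shared sites reached 4, at BnaA05g11640D and BnaA05g11650D, both at 862 and paired with bra-miR319-3p.

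**Figure D2:**
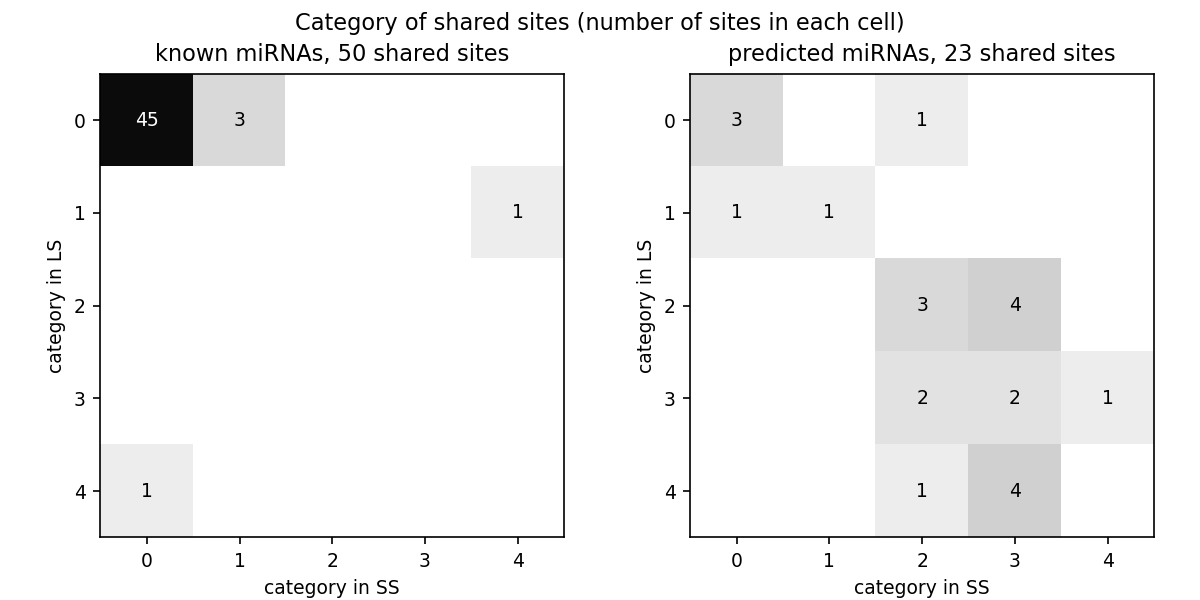
Category in LS (vertical axis) against category in SS (horizontal axis) at shared sites of known miRNAs (left, 50 sites) and predicted miRNAs (right, 23 sites). Each number counts sites, 45 of the known sites lie at category 0 in both, and darker cells hold more sites.

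The category differed at 5 shared known sites. At BnaA06g36560D, position 395, the miR395 site was of category 4 in LS and 0 in SS. At BnaA03g32550D, position 672, the miR164 site was of category 1 in LS, listed for bra-miR164a, and of category 4 in SS, listed for bra-miR164c-5p. The other 3 sites went from 0 in LS to 1 in SS, at BnaA01g35670D (miR6030), BnaA06g36780D (miR156) and BnaA08g00130D (miR164). All 102 entries listed in both tables with the same name, target and position had the same paired stretch and the same score. Stretch and score follow from the sequences, so this does not compare the lines. The best score of a site differed at 2 shared sites, BnaA07g08840D at 1134 and BnaA07g17550D at 627. At both it was 0 in LS, for ahy-miR156c, and 1 in SS, where only smo-miR156c and bna-miR156g were listed.

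The listed names differed at 8 of the 50 shared known sites. At 3 miR169 sites (BnaA03g35980D, BnaA05g19990D and BnaA06g01280D) LS listed bna-miR169n alone and SS listed bna-miR169b as well, a name that differs from it at 1 of 21 bases. At BnaA02g09970D (816) and BnaA03g33770D (696), SS listed novel_mir_65 and novel_mir_80 beside both miR164 names. These sequences are shown because their 3′ ends equal those of the miR164 names while their seeds differ.
bra-miR164a: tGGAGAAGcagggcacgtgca
novel_mir_65: tGGAGTAGtagaacacgtgca
bra-miR164c-5p: tGGAGAAGcagggcacgtgcg
novel_mir_80: tGGAGTAGtagaacacgtgcg
Each predicted name matched the miR164 name above it at 17 of 21 bases.

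Of the 7 known sites in LS only, 4 belonged to miR156, and 3 of these had an SS site 1 base away. At BnaA04g24340D LS listed position 800 for the names of 20 bases (score 0.5, category 0, p 0.002) and SS listed 801 for smo-miR156c and bna-miR156g (score 1, category 0, p 0.014). BnaA05g02680D had the same arrangement, with 803 in LS and 804 in SS, the same categories and scores, and the same paired stretches. At BnaA03g13580D the order was the other way round. LS listed 906 for ahy-miR156c (score 2, category 0, p 0.032) and SS listed 905 for the names of 20 bases (score 1.5, category 0, p 0.002). On each of these 3 mRNAs the category 0 position thus lay 1 base apart in the libraries. With positions matched within 1 base, 4 sites stood in LS only.

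**Figure D3:**
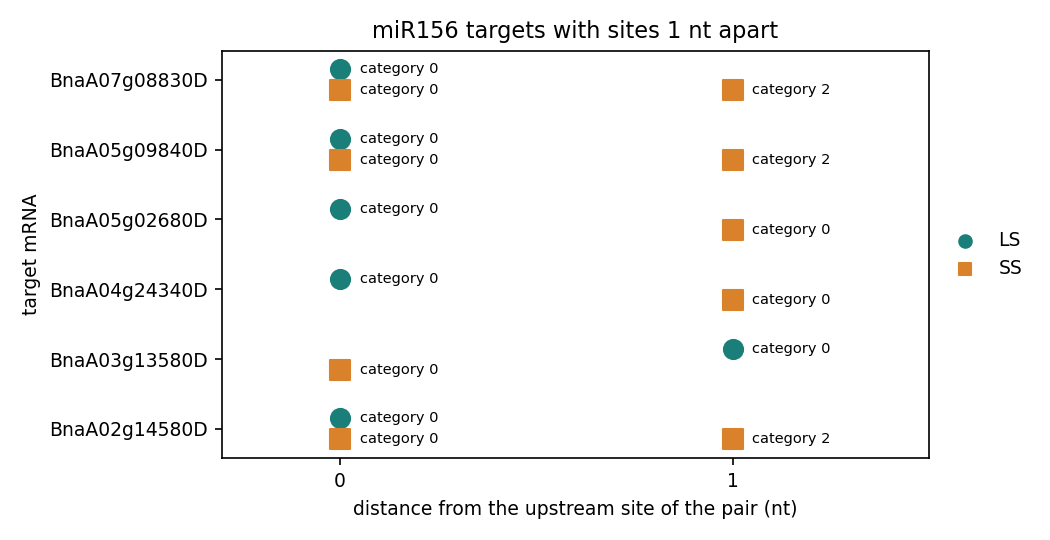
The 6 miR156 target mRNAs with sites 1 base apart, showing the distance from the upstream site (horizontal axis, nt) of each listed site in LS (circles) and SS (squares) with its category. On 3 mRNAs the LS and SS category 0 sites differ by 1 base, and on the other 3 the upstream site is of category 0 in both and SS lists a second site of category 2.

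The other 4 LS-only known sites were on mRNAs with no SS site of any kind. BnaA04g27550D was listed at 636 for ahy-miR156c, bna-miR156g and smo-miR156c, all of category 0. The best score, 0, was that of ahy-miR156c, with a p of 0.032, and the lowest p, 0, was that of bna-miR156g and smo-miR156c. BnaA09g01370D was listed at 1728 for ath-miR393a-5p (category 0, score 3, p 0), and BnaA06g05730D at 139 for the same name (category 1, score 4, p 0.02). BnaA08g25530D was listed at 2758 for bra-miR159a (category 0, score 4.5, p 0.002). The stretches of these sites, with the same use of capitals, stand beside a shared miR393 site for comparison.
ath-miR393a-5p: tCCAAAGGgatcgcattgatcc
BnaA02g28290D at 1563, shared: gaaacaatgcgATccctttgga
BnaA09g01370D at 1728, LS only: gaaaccatgcgATccctttgga
BnaA06g05730D at 139, LS only: cgatgaatgcgATctctttcgg
bra-miR159a: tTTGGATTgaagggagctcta
BnaA03g15690D at 549, shared: tagagcccccTTcaaaccaaa
BnaA08g25530D at 2758, LS only: cagaggttccTTaaaccaaa
BnaA04g27550D at 636, LS only, paired with ahy-miR156c: gtgctctctcTCttctgtcaa
The last stretch is the same as that at 1134 in BnaA07g08840D, a shared site.

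Of the 36 known sites in SS only, 20 (55.6%) were listed for ahy-miR156c alone. All 20 were of category 2 with a p of 0.002. The 4 LS entries of ahy-miR156c in this range were all of category 0 with a p of 0.032, and LS listed the name in no other category. In the whole SS table all 73 entries of ahy-miR156c were of category 2. The name was not listed at 1134 in BnaA07g08840D in SS, a category 0 site to which it pairs without a mismatch and at which LS listed it.

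Of these 20 sites, 3 lay 1 base downstream of a shared miR156 site, at 738 in BnaA02g14580D, 502 in BnaA05g09840D and 1080 in BnaA07g08830D. The other 17 were on mRNAs with no known LS site and had scores from 3 to 4.5. Over all 20 the median score was 4, against 2 at the 50 shared known sites. Of the 20, 6 lay within the first 100 bases of the mRNA, at positions from 12 to 31. Shared known sites ran from 268 to 1731, with none that near the start, and 100 was chosen after the values were seen. Positions under 100 were not particular to ahy-miR156c. They occurred at 3 of the other 16 SS-only known sites and at none of the 7 LS-only known sites. Among predicted sites they were 4 of 23 shared, 6 of 44 in LS only and 3 of 38 in SS only. C and T made up 63.2% to 90.5% of the 17 stretches (median 82.6%) and 76.2% to 80.0% of those of the 6 shared miR156 sites (median 80.0%). Some of the stretches near the start were runs of CT repeats, shown here beside the site in BnaA07g08830D.
BnaA07g08830D at 1080, score 0: gtgctctctcTCttctgtcaa
BnaA06g39150D at 31, score 4: ctctctctcTCtctctcaa
BnaA03g42890D at 28, score 4: ctctctctcTCtctctgcaa
BnaA06g01520D at 12, score 4.5: ctctctctcTCtctctctcag

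**Figure D4:**
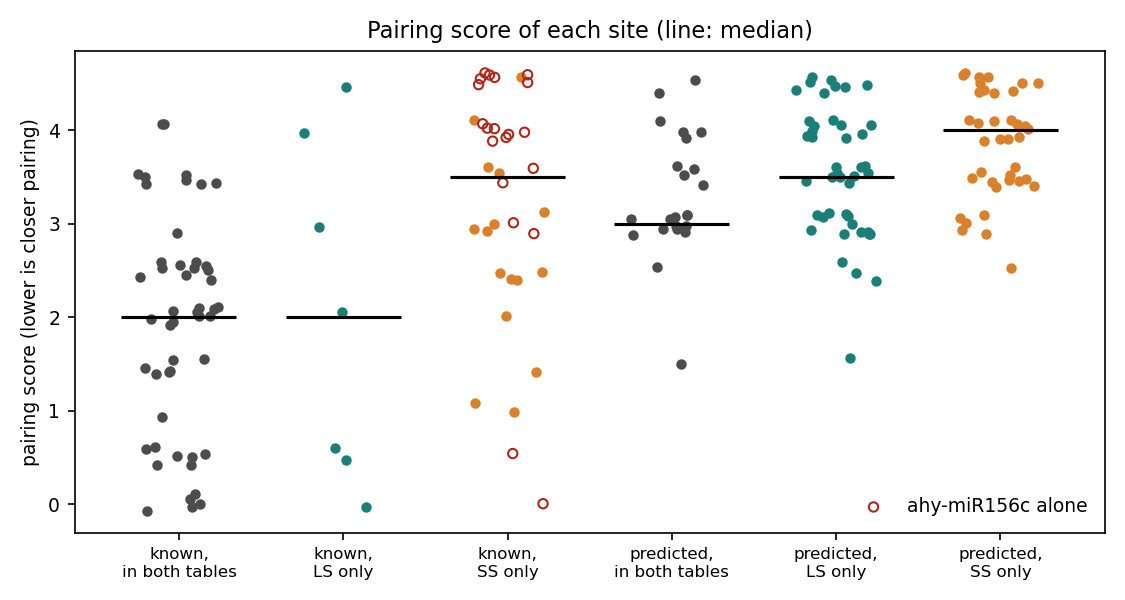
Pairing score (vertical axis) of each site by where it is listed, for known and predicted miRNAs, with points spread sideways and slightly in height and a line at the median. SS-only sites listed for ahy-miR156c alone (open circles) have a median score of 4, and shared known sites have a median of 2.

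The remaining 16 SS-only known sites were closer in category to the shared ones, with 10 of category 0, 5 of category 1 and 1 of category 4. Their median score was 2.75. They comprised 5 sites of miR156 and 11 of other families, and 3 of them were the SS partners of the LS sites 1 base away. The other miR156 sites were at 40 in BnaA01g21750D (score 2) and at 33 in BnaA04g06370D (score 3.5), both of category 0.

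Of the 11 from other families, those of p 0 were at 694 in BnaA03g04040D for bna-miR169n and bna-miR169b (category 0, score 3), at 636 in BnaA04g20300D for bna-miR166e (category 0, score 2.5) and at 102 in BnaA02g00410D for miR395 (category 1, score 2.5). BnaA02g00420D had a miR395 site at 102 with the same stretch (category 1, p 0.004). The 4 miR172 sites were at 985 in BnaA06g19240D and 259 in BnaA06g22570D, both of category 0, and at 695 in BnaA05g12920D and 420 in BnaA07g23750D, both of category 1, with scores from 3 to 4.5. The miR319 site was at 1024 in BnaA05g30730D (category 1, score 3, p 0.006). The families found in SS alone had 1 site each. bra-miR390-5p was listed at 77 in BnaA01g27230D (category 0, score 4, p 0.032) and bna-miR161, from a family that acts on pentatricopeptide repeat genes, at 1497 in BnaA06g11340D (category 4, score 2.5, p 0.002). Sequences of these sites show that each pairs at the bases in capitals.
bna-miR166e: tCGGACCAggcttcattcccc
BnaA04g20300D at 636: tgggatgaaGCctggtccgg
BnaA02g06170D at 315, shared: cgggatgaaGCctggtccgg
bna-miR169n: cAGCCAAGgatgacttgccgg
BnaA03g04040D at 694: ctggcaaatcATtcttggctt
bra-miR395a-3p: cTGAAGTGtttgggggaactc
BnaA02g00410D at 102: aagttctcccAAacacttcaa
bra-miR390-5p: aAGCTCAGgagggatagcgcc
BnaA01g27230D at 77: ggctctttgcCTcctgagctc
bna-miR161: tCAATGCActgaaagtgacta
BnaA06g11340D at 1497: tagtccctttCAtgcgttga

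Entries of 1 miRNA and category in a library mostly had the same p-value. Of 70 groups of 2 or more entries with the same library, name and category, 59 had a single p-value, and the widest gap within a group was 0.006. All deposited p-values were at most 0.048. Of the 36 SS-only known sites, 27 had no listed name that LS also listed in that category, and 20 of these were the ahy-miR156c sites. Among the 7 LS-only known sites this held for 2. The other 9 SS-only and 5 LS-only sites had a name that the other table listed in the same category, on other mRNAs or positions. The tables hold no p-value or read number for an unlisted entry, so an absent entry does not show an absence of cut ends.

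Predicted miRNAs had sites of weaker rank and looser pairing than the shared known sites, whose median score was 2. The contrast was smaller against the SS-only known sites, with a median score of 3.5 and 21 of 36 in categories 2 to 4. At the 23 shared predicted sites, 9 had the same category (39.1%), 8 had a lower category in SS and 6 a higher one, and 3 were of category 0 in both. Only 4 of the 23 were of category 0 in LS and 4 in SS, so this share does not compare with that of the shared known sites. Scores of the shared predicted sites ran from 1.5 to 4.5 with a median of 3. In LS only, 18 of 44 sites were of category 4, 10 of category 0 and 3 of category 2. In SS only, 1 of 38 was of category 4, 5 of category 0 and 14 of category 2. At the shared predicted sites, 5 were of category 4 in LS and 1 in SS. The median score was 3.5 in LS only and 4 in SS only. Among predicted sites, category 4 was thus listed more often in LS than in SS.

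**Figure D5:**
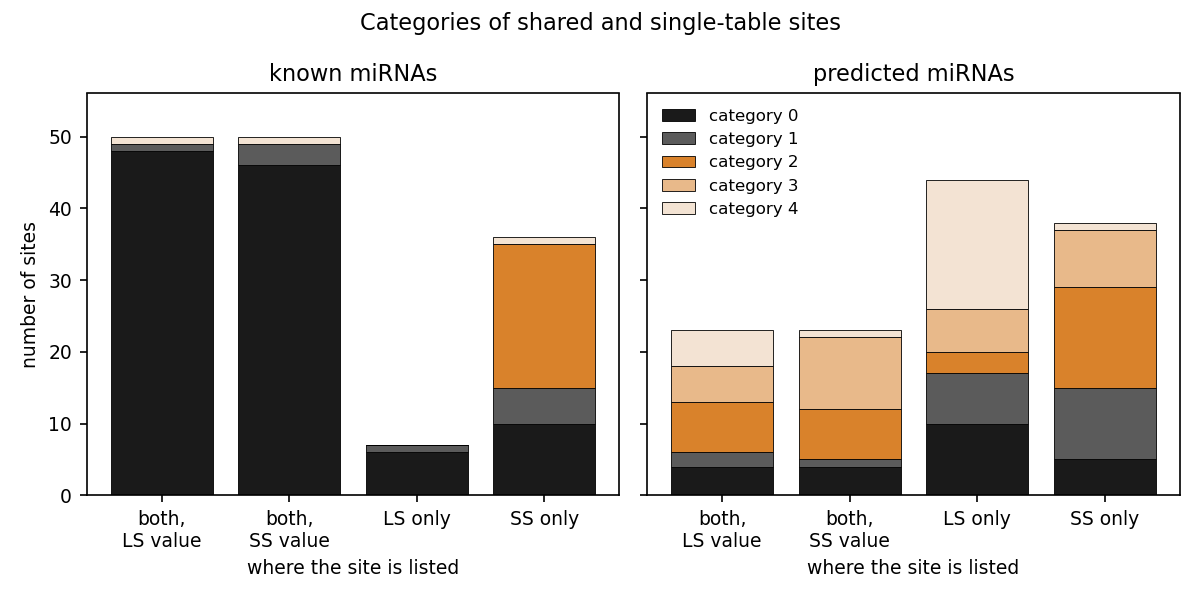
Number of sites in each category (0 to 4, stacked) for sites in both tables, by their LS and SS values, and for sites in LS only and SS only. Of shared known sites, 48 in LS and 46 in SS are of category 0, whereas 20 of 36 SS-only known sites are of category 2 and 18 of 44 LS-only predicted sites of category 4.

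For 34 of the 44 LS-only and 27 of the 38 SS-only predicted sites, the name was not in the other table within this range. novel_mir_24 had 5 sites, of which 1 was shared and 4 were in LS only, and all were of category 0 with a p of 0.002. Its shared site, at 138 in BnaA03g56970D (score 1.5), has the same stretch and position as the LS-only site in BnaA05g05100D. The other LS-only sites were at 47 in BnaA05g36010D (score 4.5), 4550 in BnaA08g12070D (score 3) and 418 in BnaA09g06590D (score 4.5).
novel_mir_24: tGAATGTCtttctcttcatc
BnaA03g56970D at 138, shared, and BnaA05g05100D at 138, LS only: ggtgaagagAAagacattct
BnaA08g12070D at 4550, LS only: gatgaggAAagacactca
novel_mir_11 had 5 sites, 4 shared and 1 in SS only. The shared ones were all at position 422, in BnaA03g14550D, BnaA03g14630D, BnaA04g18190D and BnaA04g18210D, with 1 stretch in common (score 3). They were of category 2 in LS, and of category 2, 2, 3 and 3 in SS in that order.
novel_mir_11: cAAGACGGatctcaggacaaccat
BnaA03g14550D at 422: atggtgtcttgaGAttcgtcatg

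Other predicted sites of small p were at 477 in BnaA03g07490D for novel_mir_662, of category 0 in LS (p 0) and 2 in SS (p 0.03), and at 635 in BnaA04g21470D for novel_mir_84, of category 4 and 3. novel_mir_528 was shared at 988 in BnaA01g01980D, of category 3 in LS and 2 in SS. In LS only, novel_mir_83 was listed at 1746 in BnaA03g09860D (category 3, p 0.006). In SS only, the smallest p-values were those of novel_mir_490 at 1763 in BnaA01g14330D (0.004), novel_mir_431 at 55 in BnaA06g16590D and novel_mir_167 at 1305 in BnaA03g51860D (0.006 each), novel_mir_643 at 1654 in BnaA04g15380D (0.008) and novel_mir_99 at 72 in BnaA03g26730D (0.01). At the end of the range, LS listed novel_mir_24 on BnaA09g06590D and novel_mir_371 at 679 in BnaA09g07450D. The last SS site inside it was that of ahy-miR156c at 763 in BnaA09g05510D, and the first past it that of novel_mir_359 at 809 in BnaA09g10810D.

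Some sites share their paired stretch with a site on another mRNA. The mRNA sequence around the stretch was not compared, so whether their reads can be told apart is not known. Of the 198 sites, 52 had the same paired stretch and best-scoring name as a site on another mRNA, 43 of them sites of known miRNAs, in 21 sets. In 5 sets the members differed in where they were listed. The stretch of ahy-miR156c at 1134 in BnaA07g08840D recurred on 3 other mRNAs, and of these 4 sites 2 were shared, 1 was in LS only and 1 in SS only. The stretch of bna-miR166e at 606 in BnaA08g11980D, shared, was the same as that at 636 in BnaA04g20300D, in SS only. How the authors assigned reads that match several mRNAs is not given in the sources used here.

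Levels of the miRNAs themselves came from 4 small RNA libraries, 2 per line, with totals from 6046506 to 6739286 reads, and were a readout the sites did not use. Of 29 known names with a site, 10 were in the count tables, so the families are given by the sum of all counted names and arms. Between the LS libraries, counts differed by no more than sampling noise over 55 miRNAs. Chi-square divided by its degrees of freedom was 0.904 there and 1.61 between the SS libraries. The LS libraries are therefore not taken as independent samples. Values of each library are printed side by side, and no SD is given.

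miR156 stood at 12673 and 12632 RPM (reads per 1000000 of the authors' library total) in the LS libraries and at 19872 and 19799 RPM in the SS libraries. Both SS libraries were above both LS libraries, with a ratio of means of 1.57. With the sum of known miRNA counts as total the ratio was 1.16, so its size depends on the total used. ahy-miR156c had 34 and 61 reads in LS and 83 and 115 in SS, against 80227 and 84085 and then 118238 and 124764 for smo-miR156c. The name listed at 20 of the 36 SS-only known sites was thus a minor member of its family by read number in each library.

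miR159, with 5 sites in LS and 4 in SS, stood at 130 and 131 RPM in LS and at 42.8 and 49.5 RPM in SS, lower in both SS libraries with a ratio of 0.354. miR393, with 5 and 3 sites, stood at 12.8 and 14.7 RPM in LS and 18.5 and 17.2 RPM in SS, a ratio of 1.30. The direction of the miR393 ratio turned with the sum of known miRNA counts as total, at 0.963. ath-miR393a-5p, the name at all miR393 sites, had 4 and 3 reads in LS and 1 and 0 in SS, too few to give a direction.

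Sites of miR319 and miR394 were shared although the 1 name counted for each family had few or no reads in SS. ath-miR319a was read 6 times in either library of LS and 0 times in those of SS, while 5 of the 6 miR319 sites were in both tables and the sixth was in SS only. ath-miR394a had 8 and 10 reads in LS and 1 in each SS library, and its site at 1203 in BnaA07g08860D was of category 0 with a p of 0 in both. The 3 counted names of miR160 summed to 609 and 644 reads in LS and 606 and 592 in SS, and all 3 miR160 sites were of category 0 in both. In RPM the miR160 sums of the lines overlapped, with both LS libraries between the SS values of 92.5 and 100.2. One of these names, ath-miR160a-5p, had 81 and 86 reads in LS and 17 and 11 in SS. ath-miR390a-5p had 3037 and 3036 reads in LS and 4274 and 4622 in SS, and the miR390 site was listed in SS only.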

How the data were processed

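Tissue of both lines was sequenced as small RNA (10 µg of total RNA per library) and as degradome (200 µg), per the labels. The deposited degradome tables give a score, a category and a p-value for each entry. For the aligner, the pairing tool, the mRNA set and the test behind the p-value, nothing is stated in the labels or headers (not given in the sources used here). The deposited counts are whole reads per miRNA. The deposited RPM values, log2 fold changes and p-values of the count tables were made by the authors and were not used. RPM was recomputed from the counts and the authors' library totals.

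Entries were matched by target and position with Python 3.11.15 and pandas 2.3.3. A site with a known and a predicted name counted as known. The category, the score and the p of a site are each the lowest of its entries, so they can come from different names. Wilson intervals came from scipy 1.17.1. No test was made. The matching was tested on simulated tables. Sites were named as follows: every known LS-only site, known SS-only sites of category 0 or 1 or the smallest p of a family, shared sites of the smallest LS p or a category gap of 2 or more, up to 5 predicted sites of each kind, and those at the end of the range. Further sites printed were chosen after their values were seen. The members, lists and rule were chosen with earlier results of these data known. Alternatives changed the matching distance, category, score and p limits, the end of the range, the unit counted and the library total.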

Additional observations from a re-analysis of the deposited data

How the results depend on the processing

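Of 119 alternative values, 98 stayed within the limits set (1.5 times for a count, the Wilson interval for a share, the spread of the SS libraries for a ratio). Some of the 98 could not have moved. Ratios with 1 SS library left out always stay within a limit set by the SS libraries. Known sites in LS only numbered 4 with positions within 1 nt, within 10 nt or by target alone, since 3 had an SS site 1 base away. Known sites in SS only numbered 16 with categories 0 and 1 and also without ahy-miR156c, the latter chosen after the data were seen. These were not the same 16 sites. The category limit added the shared miR395 site of BnaA06g36560D, of category 4 in LS, and dropped the miR161 site of category 4, which the other setting kept. With identical paired stretches counted once, also chosen after the data were seen, 33 known sites were shared and 4 were in LS only. For predicted miRNAs, categories 0 to 2 left 9 shared and 24 LS-only sites. Categories 0 and 1 left 5 shared, 18 LS-only and 15 SS-only sites, and 21.7% of LS sites were then in SS. A p of at most 0.01, chosen after the data were seen, left 5 shared, 15 LS-only and 6 SS-only predicted sites, because fewer entries were kept. With the sum of known miRNA counts as total, the SS to LS ratio was 1.16 for miR156, 0.262 for miR159 and 0.963 for miR393, a reversal for miR393. Leaving out 1 small RNA library at a time gave 1.56 to 1.57 for miR156, 0.328 to 0.379 for miR159 and 1.22 to 1.40 for miR393. A p of at most 0.05 removed no entry, so the values under this setting could not have moved either. No paired analysis was possible because each line had 1 degradome library and no test was made. Unknown degradome depth limits what an absent site shows.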
